A study of Mus musculus with 6 samples.

Results

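The flavin-containing monooxygenases Fmo1, Fmo2, Fmo4 and Fmo5 were followed in liver nuclei of DIAMOND mice. These 4 of the 32285 genes counted in each library were selected by symbol, on the ground of earlier results of these same mice, so that their differences between the diet groups are given as a description and not as independent evidence. The mice were males of a cross of 129A1/SvIm and C57BL/6J, fed from 2 months of age, with 2 mice in each of 3 groups. Ctrl mice received chow for 40 weeks, Pre-T mice a Western diet (high-fat food with sugar water) for 40 weeks, and Post-T mice the Western diet for 48 weeks, by which time they carried liver tumors. The titles of the Post-T libraries name tumor while their tissue label reads liver, so the share of tumor in these pieces is not known. Groups were kept in separate cages without randomization, and the Post-T group differed from the Pre-T group in time on the diet as well as in tumor, so these cannot be told apart.

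Each library held 3′ counts of unique molecular identifiers (UMIs, one per captured RNA molecule) from the nuclei of 1 snap-frozen liver, with 5638 to 8469 barcodes and 22453658 to 40307564 UMIs. Pairs of libraries shared at most 0.285% of the barcodes of the smaller one. After filters on genes per nucleus and mitochondrial UMIs, 39012 of 41882 barcodes were kept, and 1329 to 4160 nuclei a mouse lay in clusters with hepatocyte markers. The hepatocytes of the groups did not share clusters, since those of Ctrl mice lay mostly in clusters 0, 4, 5 and 13, those of Pre-T mice in clusters 1 and 26, those of Post-T 1 in cluster 2 and those of Post-T 2 in clusters 8 and 14. Cluster 14 had 4 of 12 hepatocyte markers raised, the fewest of these clusters, and its first leading gene was Meg3. An unnamed cluster of 1188 deep nuclei, cluster 17, came only from Pre-T 1 and Post-T 1 and was kept out of the hepatocytes because under 3 hepatocyte markers were raised. Cluster 3, with 2526 of its 2612 nuclei from Pre-T 2 and a median of 800 UMIs, was kept out because it held markers of both macrophages and hepatocytes.

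Flavin-containing monooxygenases are enzymes of the endoplasmic reticulum that carry FAD and use NADPH and oxygen to oxidize nitrogen and sulfur atoms of drugs, dietary amines and endogenous compounds. Fmo1 oxidizes a broad range of amines and sulfur compounds and can turn hypotaurine into taurine. Fmo2 is known as the form of the lung, Fmo5 is a liver and gut form that prefers carbonyl compounds as substrates, and the substrates of Fmo4 are little known. In the liver these enzymes work beside the cytochromes P450 in drug metabolism.

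On GRCm38, Fmo4 (ENSMUSG00000026692) spans chr1:162793188-162813972, Fmo1 (ENSMUSG00000040181) chr1:162829561-162866610 and Fmo2 (ENSMUSG00000040170) chr1:162874317-162898726. All 3 lie head to tail on the minus strand, with gaps of 15588 and 7706 bases. Fmo5 (ENSMUSG00000028088) spans chr3:97628804-97655282 on the plus strand. No other annotated gene overlaps any of them. The longest coding sequences of the GENCODE annotation held 1599 bases for Fmo1, 1608 for Fmo2, 1683 for Fmo4 and 1602 for Fmo5, and any pair was identical at 59.3% to 63.0% of the aligned bases. The first 90 coding bases of Fmo2, Fmo4 and Fmo5 are shown as an example of how the coding sequences differ. The libraries count 3′ ends, which were not compared between members, so sharing of reads was not tested. Capitals mark the codons of the glycine-rich motif that binds FAD, codons 9 to 14 in Fmo2 and Fmo4 and 10 to 15 in Fmo5.
Fmo2: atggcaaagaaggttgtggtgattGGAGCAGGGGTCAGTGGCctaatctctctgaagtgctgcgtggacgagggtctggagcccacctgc
Fmo4: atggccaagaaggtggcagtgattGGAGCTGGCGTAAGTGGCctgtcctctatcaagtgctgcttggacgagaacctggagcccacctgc
Fmo5: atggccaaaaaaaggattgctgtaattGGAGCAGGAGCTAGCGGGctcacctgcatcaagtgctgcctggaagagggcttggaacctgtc

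In hepatocytes, Fmo5 and Fmo2 were higher in every Western-diet mouse than in either Ctrl mouse, whereas the ranges of Fmo1 and Fmo4 overlapped between Ctrl and Post-T mice. All levels below are given in CPM, the UMIs of the gene scaled to a common total of UMIs of the class, summed over the nuclei of a mouse. CPM leaves out the TMM factors, which correct for library composition and are applied in the edgeR fits. In hepatocytes these factors were 0.901 and 0.955 in Ctrl, 1.18 and 1.15 in Pre-T and 1.01 and 0.844 in Post-T mice. The levels are compared between mice and classes and not between genes, since gene length was not taken into account. In bulk sums of a class, fewer cells with a transcript and less transcript per cell cannot be told apart from the level alone, so shares of nuclei follow.

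Fmo5 stood at 729.0 CPM in Ctrl 1 and 1370 CPM in Ctrl 2, at 4924 and 3390 CPM in Pre-T 1 and Pre-T 2, and at 2407 and 7790 CPM in Post-T 1 and Post-T 2. The lowest Western-diet mouse, Post-T 1, lay above the higher Ctrl mouse, and the Post-T mice spanned a wider range than the Pre-T mice. The group mean was 3.96 times the Ctrl mean in Pre-T mice and 4.86 times in Post-T mice. At least 1 UMI of Fmo5 was found in 70.3% and 72.4% of Ctrl, 92.4% and 95.8% of Pre-T and 75.8% and 92.4% of Post-T hepatocyte nuclei. With each nucleus thinned to 500 UMIs, which removes differences in depth, these shares were 26.4% and 37.8%, 72.6% and 68.8%, and 48.1% and 81.2%, and all 4 Western-diet mice again lay above both Ctrl mice.

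Fmo2 had the widest range of the members in hepatocytes. It stood at 3.61 and 12.9 CPM in Ctrl 1 and Ctrl 2, at 41.6 and 19.9 CPM in Pre-T 1 and Pre-T 2, and at 74.5 and 516 CPM in Post-T 1 and Post-T 2. The groups did not overlap and followed the order Ctrl, Pre-T, Post-T, but Post-T 2 alone lay 6.93 times above Post-T 1, and the highest mouse was 143 times the lowest. In Ctrl 1 the level rested on 60 UMIs in 4045 nuclei, and in Post-T 2 on 7424 UMIs in 3007 nuclei. Of these 7424 UMIs, 6955 lay in cluster 14, the hepatocyte cluster with the fewest raised markers. A UMI of Fmo2 was found in 52.1% of the hepatocyte nuclei of Post-T 2 (95% exact binomial interval 50.3% to 53.9%) and in 17.7% of those of Post-T 1 (16.3% to 19.3%). In Ctrl mice the shares were 1.48% and 3.85%. Among the deep nuclei of cluster 14 (median of 9109 UMIs), which belonged to Post-T 2, 91.2% had a UMI of Fmo2. Nuclei this deep can also hold UMIs from RNA of other cells, and the part of this in the share was not tested. In the shallow nuclei of cluster 8, also of Post-T 2, the level was 254 CPM against 555 CPM in cluster 14.

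Fmo1 stood at 117 and 176 CPM in Ctrl mice, 257 and 195 CPM in Pre-T mice, and 126 and 318 CPM in Post-T mice. In CPM both Pre-T mice lay above both Ctrl mice, whereas Post-T 1 fell between the Ctrl mice and Post-T 2 was the highest of all. The places of Pre-T 2 and Post-T 1 relative to the Ctrl mice do not hold once the TMM factors are applied. Fmo4 was read at 11.1 and 18.1 CPM in Ctrl, 23.1 and 15.1 CPM in Pre-T and 9.33 and 38.7 CPM in Post-T mice, so its groups overlapped and the Post-T mice held both the lowest and the highest value. The highest mouse exceeded the lowest 2.73-fold for Fmo1 and 4.15-fold for Fmo4. For all 4 members Post-T 2 was the highest mouse of the 6.

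**Figure D1:**
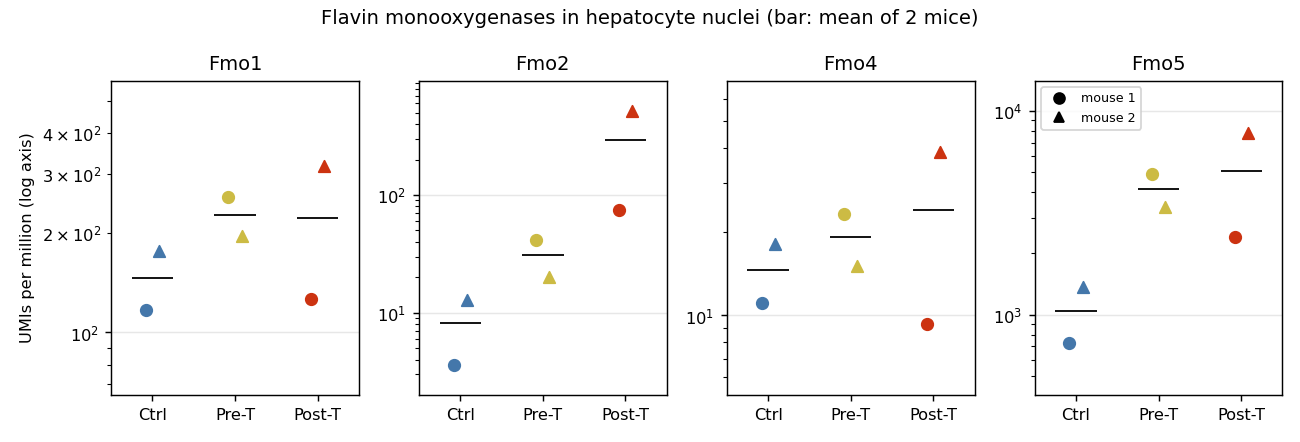
Level of each member in hepatocyte nuclei, in CPM on a log axis, with 1 point per mouse (circle, mouse 1; triangle, mouse 2) and a bar at the mean of the 2 mice of a group. Fmo2 and Fmo5 lie above the Ctrl mice in all 4 Western-diet mice, and the Post-T mice stand far apart for every member.

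The fit over all 19004 genes tested in hepatocytes (edgeR's quasi-likelihood test with Benjamini-Hochberg adjustment) called 0 of 4 members in any of the 3 comparisons. Between Pre-T and Ctrl mice it called 0% of genes, although 3032 had an unadjusted p under 0.05, and DESeq2 called 974 genes or 5.13%. It called 3.12% of genes for Post-T against Ctrl and 0.816% for Post-T against Pre-T. The log2 fold change of Fmo5 was 1.69 ± 0.70 (SE; adjusted p = 0.313) for Pre-T against Ctrl and 2.40 ± 0.71 (adjusted p = 0.117) for Post-T against Ctrl. That of Fmo2 was 1.62 ± 1.03 (adjusted p = 0.475) for Pre-T against Ctrl, 5.32 ± 1.19 (adjusted p = 0.0707) for Post-T against Ctrl and 3.70 ± 1.10 (adjusted p = 0.132) for Post-T against Pre-T. Fmo1 and Fmo4 had log2 fold changes of 0.09 to 0.84 in the 3 comparisons, with standard errors of 0.52 to 0.70 and adjusted p of 0.433 to 0.960.

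DESeq2 on the same sums called Fmo2 and Fmo5 between Post-T and Ctrl mice (adjusted p of 3.37e-07 and 0.0026), where it called 12.6% of all genes, and Fmo2 for Post-T against Pre-T (adjusted p of 0.0011), where it called 10.6%. For Pre-T against Ctrl, DESeq2 gave Fmo5 an adjusted p of 0.0953. The edgeR calls depended on which Post-T mouse was kept. Without Post-T 1, edgeR called all 4 members between Post-T and Ctrl mice, at adjusted p of 0.00922 to 0.0389, with Post-T 2 then standing alone for its group and assumed to vary like the others, and 12.8% of all genes were called in that fit. Without Post-T 2 it called 0 of 4 and 9.2% of all genes, the log2 fold change of Fmo2 went to 3.11 and that of Fmo5 to 1.12, and those of Fmo1 and Fmo4 turned to -0.30 and -0.73. Cluster 3 held Fmo5 at 1545 CPM in Pre-T 2, against 3390 CPM in the hepatocytes of that mouse. Adding it took Pre-T 2 from 1329 to 3855 hepatocyte nuclei and the log2 fold changes of Fmo5 and Fmo4 for Pre-T against Ctrl to 1.58 and 0.0062, and edgeR again called 0 of 4 members in each comparison.

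**Figure D2:**
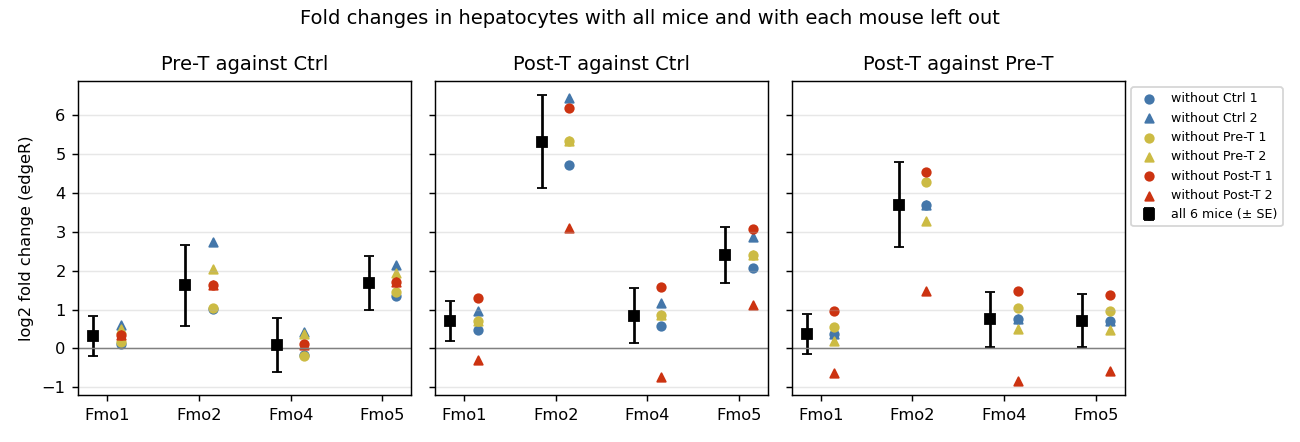
Log2 fold changes from edgeR in hepatocytes for each comparison. Squares with bars give the value and standard error over all 6 mice, and colored points the value with 1 mouse left out. Leaving out Post-T 2 moved Fmo1 and Fmo4 below 0 in both comparisons with Post-T mice.

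The rank of a hepatocyte along the liver lobule was read from marker genes, which no rule on the members had used. Within each mouse, hepatocyte nuclei were ranked by the share of pericentral markers (genes of cells near the central vein) among their pericentral and periportal marker UMIs. The ranking was cut into 3 equal parts, and the pericentral and the periportal part were then compared with the mouse in the model. In Ctrl and Pre-T mice, Fmo1, Fmo2 and Fmo5 were higher in the pericentral part and Fmo4 was not.

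Fmo1 stood at 81.1 CPM in the periportal and 166 CPM in the pericentral part of Ctrl 1, and at 106 and 272 CPM in those of Ctrl 2. In Pre-T 1 it stood at 171 and 361 CPM, and in Pre-T 2 at 147 and 268 CPM. The pericentral part was thus 1.82 to 2.55 times the periportal part in each of these 4 mice. In Post-T 1 and Post-T 2 the order was the opposite, with 141 and 370 CPM in the periportal and 112 and 270 CPM in the pericentral part. For Fmo5 the pericentral part was 1.35 to 2.07 times the periportal part in the Ctrl and Pre-T mice, and 1.06 and 0.952 times in Post-T 1 and Post-T 2. For Fmo2 it was 1.65 to 6.14 times in the Ctrl and Pre-T mice, where the periportal parts of the Ctrl mice held only 17 and 27 UMIs, and 0.802 and 1.03 times in the Post-T mice. The ratio for Fmo4 lay between 0.760 and 1.39 over the 6 mice, on both sides of 1.

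With all 6 mice, edgeR called 0 of 4 members between the parts, against 4.62% of the 18153 genes tested, 3251 of which had an unadjusted p under 0.05. The log2 differences were 0.59 for Fmo1 (adjusted p of 0.199), 0.91 for Fmo2 (0.206), 0.07 for Fmo4 (0.851) and 0.47 for Fmo5 (0.110). DESeq2 called 1 member, Fmo5 (adjusted p of 0.0345), and 5.73% of genes. With the Ctrl and Pre-T mice only, a choice made after these values were seen, edgeR called 3 of 4 members against 8.27% of genes. The log2 differences were then 1.09 with a standard error of 0.10 for Fmo1 (adjusted p of 0.00043), 1.76 with a standard error of 0.31 for Fmo2 (0.00971) and 0.71 with a standard error of 0.13 for Fmo5 (0.0107), each higher in 4 of 4 mice. Fmo4 had a log2 difference of 0.08 (adjusted p of 0.847). The test of whether the zone effect differed between the Post-T mice and the other mice was also chosen after these ratios were seen, so it describes them and is not independent of them. It called Fmo1, with a difference of -1.44 on the log2 scale and an adjusted p of 0.00117, against 1.13% of genes. Not called were Fmo2 (-1.84, adjusted p of 0.0630), Fmo5 (-0.67, 0.240) and Fmo4 (0.02, 1).

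The parts of the Post-T mice were not the same zones as those of the other mice. The lowest part held nuclei with up to 90.9% pericentral markers in Post-T 2 and up to 71.4% in Post-T 1, against 5.88% to 28.6% in the Ctrl and Pre-T mice. Glul, which encodes glutamine synthetase and marks the cells around the central vein, stood at 4856 CPM in the lowest and 6100 CPM in the highest part of Post-T 2, against 14.7 and 448 CPM in those of Ctrl 1. Hal, a periportal enzyme of histidine breakdown, was at 2.08 CPM or less in both parts of Post-T 2. How far this bears on the difference between the groups was not tested.

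**Figure D3:**
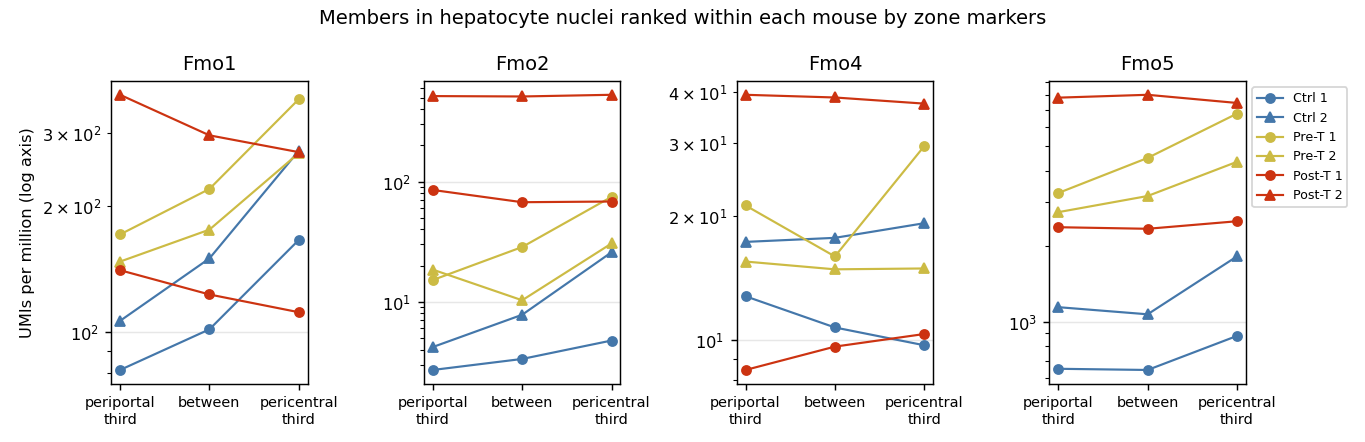
Level of each member in the periportal part, the nuclei between and the pericentral part of the hepatocytes of each mouse, in CPM on a log axis, with 1 line per mouse. Fmo1 and Fmo5 rise to the pericentral part in the 4 Ctrl and Pre-T mice, and Fmo1 falls in both Post-T mice.

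Outside hepatocytes a low level can come from free RNA, which droplets take up from broken cells. Genes of proteins that hepatocytes secrete (albumin and others) were used as the measure of it. In the 49 pairs of a named class and a mouse with at least 20 nuclei, these genes stood at 0.337 to 1.5 times their level in the hepatocytes of the same mouse. Fmo5 stayed below that ratio in 49 of 49 pairs, at 0.0687 to 0.605 times its hepatocyte level. Fmo4 was above it in 3 and Fmo1 in 5 of 49, of which 1 each lay above it by more than 2-fold. In the named classes outside hepatocytes Fmo4 reached 26.7 CPM at most, a value that rested on 1 UMI in erythroid cells.

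Of the 5 pairs with Fmo1 above the ratio of the secreted-protein genes, 4 were endothelial cells. Endothelial Fmo1 stood between 101 and 190 CPM in the 6 mice, 0.495 to 1.17 times the hepatocyte level. In Post-T 1 it was 1.17 times the hepatocyte level against 0.426 for the secreted-protein genes. In B cells, fibroblasts, macrophages, monocytes and cholangiocytes Fmo1 was below their ratio in every mouse.

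Fmo2 was above it in 22 of 49 pairs, in 19 of them by more than 2-fold. Mesothelial cells, the cells of the liver's outer lining, held 276, 971 and 1038 CPM in Ctrl 1, Ctrl 2 and Pre-T 1, the mice with at least 20 such nuclei. These were 24.9 to 76.6 times the hepatocyte level of the same mouse, and 35.8% to 69.2% of mesothelial nuclei had a UMI of Fmo2. Cholangiocytes, the cells of the bile ducts, held 61.3 to 260 CPM in 5 mice, or 2.13 to 20.2 times the hepatocyte level. T cells were assumed not to transcribe Fmo2, which was not tested. In T cells Fmo2 stood at 1.97 and 10.1 CPM in Ctrl mice, 18.3 and 18.4 CPM in Pre-T mice and 53.9 and 99.5 CPM in Post-T mice. These were 0.193 to 0.924 times the hepatocyte values of the same mice, and above the ratio of the secreted-protein genes in 1 of 6 mice. In Ctrl mice 0.397% and 1.19% of T cells and in Post-T 2 14.7% had a UMI of Fmo2, at median depths of 1264 to 1541.5 UMIs.

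**Figure D4:**
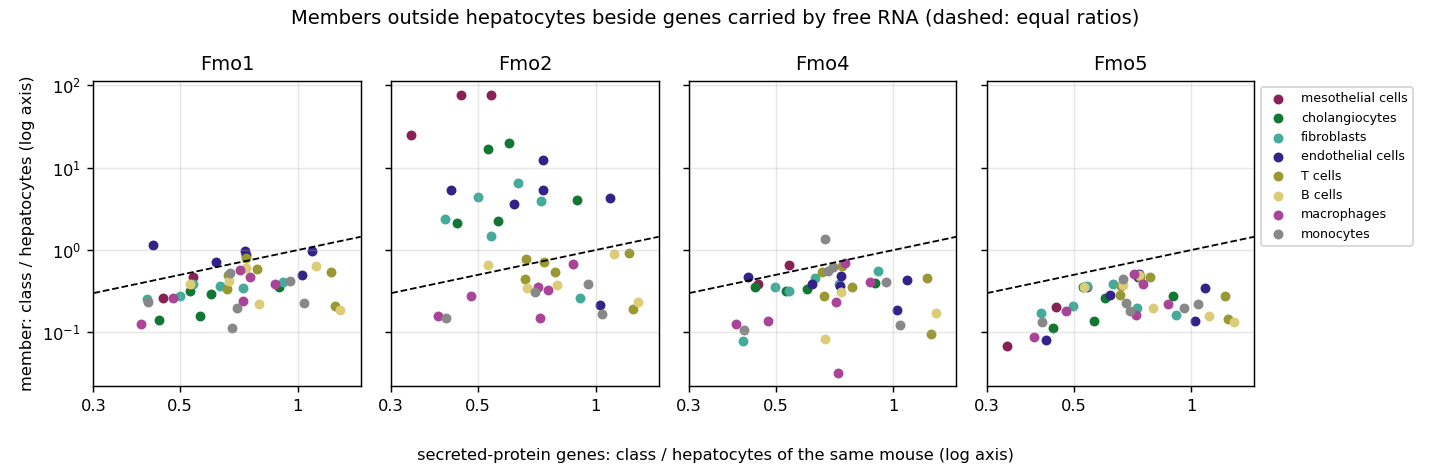
Level of each member in other classes relative to hepatocytes of the same mouse, against the same ratio for genes of secreted liver proteins, both on log axes, with 1 point per class and mouse (values of 0 are left out). Points on the dashed line have equal ratios. Fmo5 lies below the line throughout, and Fmo2 lies far above it in mesothelial cells and cholangiocytes.

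In endothelial cells Fmo2 belonged chiefly to cluster 22, whose leading genes were Vwf and Cdh13. There it stood at 197 and 424 CPM in Ctrl 1 and Ctrl 2, 520 and 402 CPM in Pre-T 1 and Pre-T 2, and 1420 CPM in Post-T 1, while Post-T 2 had 11 nuclei of this cluster, which entered the fit but are too few for a level. In clusters 12 and 15, led by the sinusoidal marker Stab2, it lay between 6.82 and 29.9 CPM in Ctrl and Pre-T mice. In Post-T 1 it stood at 113 CPM in cluster 15, on 23 nuclei. Cluster 7, which held 1554 of the 1576 endothelial nuclei of Post-T 2, stood at 110 CPM in that mouse, close to the 99.5 CPM of its T cells and under its hepatocyte level of 516 CPM. In Post-T 1, with 149 nuclei of cluster 7, Fmo2 stood at 116 CPM, above both the T cells and the hepatocytes of that mouse. The part of free RNA in these values was not tested. The deep unnamed cluster 17 held 46.3 CPM of Fmo2 in Pre-T 1 and 69.7 CPM in Post-T 1, close to the hepatocytes of these mice, and 2468 and 1434 CPM of Fmo5.

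Over the whole endothelial class edgeR called Fmo2 for Post-T against Ctrl (log2 fold change 2.14 ± 0.48 SE, adjusted p = 0.0377), where 7.11% of the 18850 genes were called. The class levels behind this were 45.1 and 69.1 CPM in Ctrl, 153 and 84.9 CPM in Pre-T and 394 and 113 CPM in Post-T mice. The groups did not fill the same clusters, since cluster 7 held 149 of 242 and 1554 of 1576 Post-T nuclei but 1 and 0 Ctrl nuclei, and Ctrl nuclei lay in clusters 12, 15 and 22. Leaving out either Ctrl mouse, either Pre-T mouse or Post-T 1 ended the call. No member was called for Pre-T against Ctrl (0.143% of genes called) or for Post-T against Pre-T (2.93%). Cluster 22 was fitted alone after its high Fmo2 level was seen, with a Post-T group of 59 nuclei of Post-T 1 and 11 of Post-T 2. There Fmo2 had a log2 fold change of 1.65 and an adjusted p of 0.0331 for Post-T against Ctrl (1.94% of genes called), 0.48 and 0.888 for Pre-T against Ctrl (2.06%) and 1.17 and 0.382 for Post-T against Pre-T (0.587%). Fmo5 was called there between Pre-T and Ctrl mice (1.57, adjusted p of 0.0344), but relative to hepatocytes it stood below the secreted-protein genes of that cluster in each of the 5 mice with at least 20 nuclei.

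In fibroblasts the class as a whole and its collagen cluster gave different answers for Fmo2. Over the class it stood at 23.5 and 19.2 CPM in Ctrl, 100.1 and 79.6 CPM in Pre-T and 328 and 136 CPM in Post-T mice, so that the Ctrl mice did not overlap with the others. In Post-T 2, with 57 fibroblasts, Fmo2 was 0.263 times the hepatocyte level, against 0.915 for the secreted-protein genes. T cells of that mouse held 99.5 CPM, and the part of free RNA in its fibroblast value was not tested. edgeR called Fmo2 between Pre-T and Ctrl mice (log2 fold change of 1.84, standard error of 0.35, adjusted p of 0.0178) and between Post-T and Ctrl mice (3.44, 0.37, 0.00161), where 3.57% and 2.83% of the 19022 genes were called. For Post-T against Pre-T, edgeR called 0% of genes, with 1899 at an unadjusted p under 0.05 and 89 called by DESeq2, and Fmo2 was at an adjusted p of 0.137. The median log2 fold change over all genes was -0.24 between Post-T and Ctrl fibroblasts and -0.12 between Post-T and Ctrl endothelial cells. Leaving out either Ctrl mouse ended the call between Pre-T and Ctrl mice, and leaving out Ctrl 1 that between Post-T and Ctrl mice.

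Most fibroblasts of Ctrl mice lay in cluster 6, whose Fmo2 stood at 1.51 and 9.79 CPM in these mice, and most of those of Western-diet mice in cluster 10, led by Lama2, Pdgfra and Col3a1. Pre-T 1 and Pre-T 2 had only 25 and 34 nuclei in cluster 6. Both lay above both Ctrl mice there, with 48.2 CPM of Fmo2 in Pre-T 1. Cluster 10 held 138 of 853 and 78 of 1090 fibroblasts of the Ctrl mice, 431 of 456 and 511 of 545 of the Pre-T mice, and 218 of 218 and 55 of 57 of the Post-T mice. Within cluster 10, Fmo2 stood at 147 and 185 CPM in Ctrl, 105 and 87.6 CPM in Pre-T and 328 and 139 CPM in Post-T mice. Both Pre-T mice thus lay below both Ctrl mice in cluster 10, the reverse of the class and of cluster 6. The value of Post-T 2 rested on 55 nuclei and lay below the 516 CPM of its hepatocytes, and the part of free RNA in it was not tested. The fit on cluster 10 alone, chosen after seeing the data, gave log2 fold changes of -0.71 for Pre-T against Ctrl (adjusted p of 0.398), 0.72 for Post-T against Ctrl (0.462) and 1.43 for Post-T against Pre-T (0.0486), where 4.41%, 3.72% and 0.986% of genes were called. It also called Fmo5 in both comparisons with Ctrl mice (1.52 and 1.82, adjusted p of 0.0243 and 0.00731), although relative to hepatocytes it stood below the secreted-protein genes of that cluster in each of the 6 mice.

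**Figure D5:**
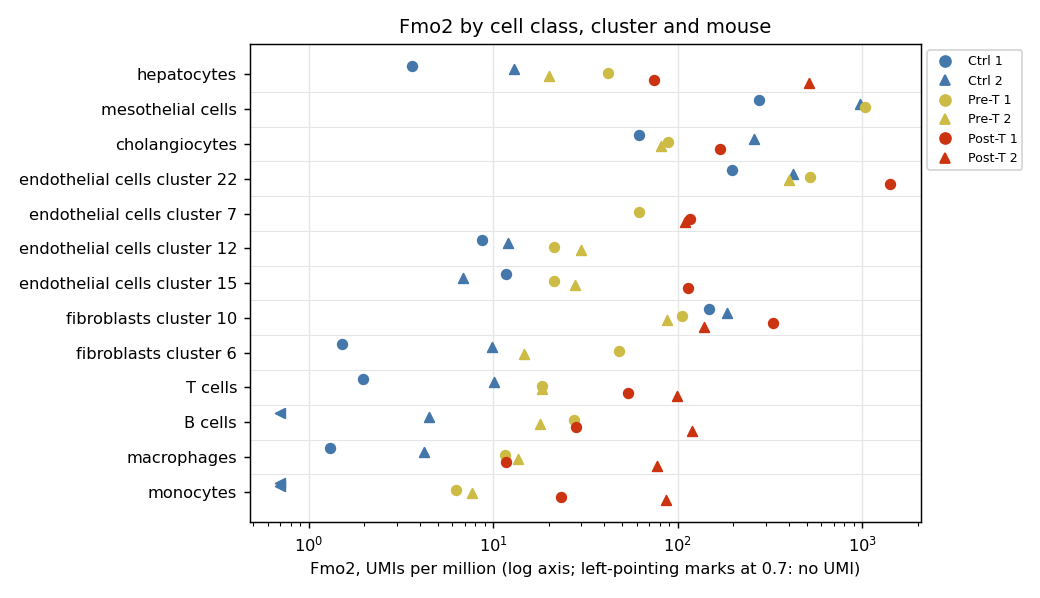
Fmo2 in CPM on a log axis, by class or cluster (rows) and mouse (points, colored by group); left-pointing marks stand for 0 UMIs. Mesothelial cells reach 1038 and endothelial cluster 22 reaches 1420, and fibroblast cluster 10 stands above cluster 6.

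The 4 members were compared across the 6 mice for likeness in hepatocytes, on the log2(CPM + 1) scale and as a description over 6 points that share library and depth. Fmo1 and Fmo4 were most alike (Pearson r of 0.954), and Fmo2 and Fmo4 least (0.649). Among 8950 other genes of at least 10 CPM, the 3 most like Fmo1 were Mff, Prr14 and Adprm (r of 0.989 to 0.999). Those most like Fmo2 were Adss, Acad10 and Gmfb (0.989 to 0.995), those most like Fmo4 were Angel2, Nr2f2 and Rabgap1l (0.978 to 0.997), and those most like Fmo5 were Thoc7, Stradb and Slc23a2 (0.988 to 0.995). Each r was picked as among the highest of 8950, so it is high in part by selection. It also leaves out the size of a change, since Acad10 ran from 44.2 to 75.6 CPM and Fmo2 from 3.61 to 516 CPM.

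The genes of 6 lists that supply or surround these enzymes were read in the same hepatocyte fit. No gene of any list passed in the comparisons of Pre-T with either other group, where 0% and 0.816% of all genes were called. The counts for Post-T against Ctrl stand beside 3.12% of all genes called, and nothing particular to a list is read from them. Between Post-T and Ctrl mice, 1 of 5 tested genes of riboflavin and FAD supply fell, Enpp3, a surface enzyme that cleaves nucleotide phosphates, from 262 and 212 CPM in Ctrl to 92.5 and 86.3 CPM in Post-T mice (log2 fold change of -1.38, adjusted p of 0.0444). Of 15 transcription factors tied to liver Fmo or drug enzyme genes, 1 fell, Esr1, the estrogen receptor alpha, from 237 and 167 to 45.1 and 53.4 CPM (-2.0, adjusted p of 0.0451). The medians of these 2 lists were 0.31 and 0.21, beside -0.02 over all genes.

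The other 4 lists had 0 genes called. In NADPH supply (9 tested, median -0.34 between Post-T and Ctrl mice), Aldh1l1, a folate enzyme that makes NADPH, stood at 642 and 364 CPM in Ctrl and 172 and 135 CPM in Post-T mice (adjusted p of 0.0745), and Me1, malic enzyme, at 188 and 216 and at 182 and 134 CPM (0.373). In taurine synthesis and transport (7 tested, median 0.14), Cdo1, which oxidizes cysteine, had a log2 fold change of 0.14 (0.834) and Csad, which makes hypotaurine, of -0.24 (0.739). Among microsomal electron carriers (5 tested, median 0.04), Por, the reductase that passes electrons to the cytochromes P450, stood at 187 and 436 CPM in Ctrl, 313 and 276 CPM in Pre-T and 697 and 2279 CPM in Post-T mice (adjusted p of 0.116 against Ctrl), and Cyb5a had a log2 fold change of 0.04 (0.968). Among other amine and sulfur oxidases (10 tested, median -0.27), Aox3, an aldehyde oxidase, stood at 2975 and 2478 CPM in Ctrl, 1154 and 1108 CPM in Pre-T and 866 and 915 CPM in Post-T mice (adjusted p of 0.0577), and Aox1 had a log2 fold change of -0.18 (0.882). For Aox3 every Western-diet mouse lay below both Ctrl mice, the opposite order to that of Fmo5.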

How the data were processed

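Single-nucleus RNA of 6 mouse livers was measured with 10x Next GEM v3.1 3′ libraries. Per the labels and the file headers, the authors aligned reads to mm10 with Cell Ranger 6.1.1, and the deposited files hold raw UMI counts per gene and barcode, with no normalization. Whether intronic reads were counted is not given in the sources used here. Nuclei with 200 to under 5000 genes and under 5% mitochondrial UMIs were kept and no doublet caller was run, so doublets are removed only by the upper limit. Nuclei were clustered with scanpy 1.11.5 (2000 variable genes, 30 components, 15 neighbors, Leiden resolution 1). Clusters were named from marker lists with at least 3 raised markers, and hepatocyte clusters by comparison with the named other classes of the same mice. Clusters with markers of 2 classes stayed unnamed.

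UMIs were summed per mouse and class, since nuclei are not replicates. Genes with at least 10 UMIs over all hepatocyte sums (3 in endothelial cells and fibroblasts) were tested with edgeR 4.0.16 (TMM, quasi-likelihood, all 6 mice in 1 fit, adjusted p under 0.05 called), and with DESeq2 1.42.0 as an alternative. The edgeR script was tested on simulated counts. Zones took nuclei with at least 3 zone-marker UMIs, and zone markers were left out of the counts of called genes. Nuclei are counted with a UMI at full depth and thinned to 500 or 2000 UMIs. Intervals cover counting error only. With 2 mice a group, an exact permutation test cannot go below p = 0.333, so p-values rest on the fit across all genes, and nothing in the labels pairs the mice. Positions and coding sequences are from GENCODE on GRCm38. The coding sequence of Fmo1 is not reported here. The members and lists were chosen with earlier results of these data known. The genes named besides the members are, of each list, up to 4 called in hepatocytes or else the 2 of highest mean CPM, and the 3 most like each member. Normalization, filters, left-out mice, the naming of hepatocytes, zone limits and a replicate block were varied.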

Additional observations from a re-analysis of the deposited data

Results flagged for a closer look

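The zone difference of Fmo1 in hepatocytes differed between the Post-T mice and the other mice, by -1.44 on the log2 scale in a test of the difference itself that was chosen after the ratios of the mice were seen. The most periportal nuclei of the Post-T hepatocytes were already high in pericentral markers, and the part of this was not tested.

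Fmo2 was lower in both Pre-T mice than in both Ctrl mice in fibroblast cluster 10, while it was higher in both Pre-T mice in hepatocytes, in endothelial cells and in the fibroblast class as a whole. The log2 ratios of the group means differed from that of cluster 10 by 2.69 in hepatocytes, 1.84 in endothelial cells and 2.86 in the fibroblast class. These differences were not tested. Groups of 2 mice are too small for a check of single samples that stand apart.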

How the results depend on the processing

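The number of members called by edgeR moved with the setting. In hepatocytes, DESeq2 called 2 members between Post-T and Ctrl mice and 1 for Post-T against Pre-T, where edgeR called 0, and over all genes it called 974, 2388 and 2019 against 0, 593 and 155. Between the zones, DESeq2 and the fit without a low-count filter called 1 member each (1041 and 1256 of all genes, against 839), and the Ctrl and Pre-T mice alone gave 3. In endothelial cells, cluster 22 alone gave 1 member between Pre-T and Ctrl mice. In fibroblasts, dropping the low-count filter or adding the replicate block gave 2 members between Post-T and Ctrl mice and 1 for Post-T against Pre-T, and cluster 10 alone gave 1 in the latter. Calls over all genes moved as well in these fibroblast fits, from 538 to 1582 without the filter and 1278 with the block for Post-T against Ctrl, and from 0 to 657 and 464 for Post-T against Pre-T. The causes were not tested.

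With 1 mouse left out, the members called ranged from 0 to 4 in hepatocytes for Post-T against Ctrl and from 0 to 2 for Post-T against Pre-T, while calls over all genes ranged from 0 to 2380 and from 0 to 2127. The members called ranged from 0 to 1 in endothelial cells in both comparisons with Post-T mice (262 to 1184 and 0 to 516 of all genes), and from 0 to 1 in fibroblasts for Pre-T and Post-T against Ctrl (1 to 945 and 5 to 1009 of all genes). Log2 fold changes that changed sign in hepatocytes ranged from -0.20 to 0.43 for Fmo4 between Pre-T and Ctrl mice, from -0.30 to 1.31 for Fmo1 and -0.73 to 1.59 for Fmo4 between Post-T and Ctrl mice, and from -0.64 to 0.96 for Fmo1, -0.83 to 1.48 for Fmo4 and -0.58 to 1.37 for Fmo5 for Post-T against Pre-T. Fmo4 ranged from -0.035 to 0.18 between the zones. In endothelial cells they ranged from -0.0037 to 0.63 for Fmo1 between Pre-T and Ctrl mice, from -0.51 to 0.57 for Fmo4 and -1.46 to 1.36 for Fmo5 between Post-T and Ctrl mice, and from -0.24 to 0.23 for Fmo1, -0.67 to 0.41 for Fmo4 and -2.62 to 0.21 for Fmo5 for Post-T against Pre-T. In fibroblasts they ranged from -0.20 to 0.37 for Fmo1 between Pre-T and Ctrl mice, from -0.80 to 1.19 for Fmo1 and -0.83 to 1.95 for Fmo4 between Post-T and Ctrl mice, and from -0.84 to 1.15 for Fmo1, -0.17 to 2.61 for Fmo4 and -0.50 to 0.94 for Fmo5 for Post-T against Pre-T.

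Other settings turned the sign of 6 log2 fold changes. Fmo4 in hepatocytes between Pre-T and Ctrl mice was -0.081 over all kept nuclei and -0.043 over all barcodes. Fmo1 in endothelial cells for Post-T against Pre-T was -0.00096 with the replicate block, and Fmo4 there -0.074 in cluster 22. In fibroblast cluster 10, Fmo2 was -0.71 and Fmo4 0.0016 between Pre-T and Ctrl mice. The replicate numbers are shared by the groups but name no common cage or litter, and the deviations of same-numbered mice from their group means correlated at -0.19, 0.07 and -0.21 over 8951 genes. With the replicate block no call was lost and 2 were gained, both in fibroblasts. With 2 mice a group, differences of the size seen between the Post-T mice cannot be told apart from differences between groups.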

Other observations

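The barcodes removed for holding at least 5000 genes, 81 to 587 a mouse, held Fmo2 at 3.05 and 12.3 CPM in Ctrl, 34.9 and 20.3 CPM in Pre-T and 79.9 and 466 CPM in Post-T mice, and Fmo5 at 703 and 1445, 3930 and 2754, and 2996 and 8541 CPM. The mice stood in the same order for Fmo2 as in the hepatocytes kept. For Fmo5 they did not, since Post-T 1 lay above Pre-T 2 in these barcodes and below it in the hepatocytes kept.

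Of all kept UMIs of Fmo2, hepatocytes held 14.5% and 21.8% in Ctrl, 40.0% and 24.6% in Pre-T and 43.3% and 93.3% in Post-T mice, against 37.3% to 74.0% of the UMIs of all genes.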
